A study of Bos taurus with 6 samples.

Results

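PAG11, pregnancy-associated glycoprotein 11, is represented by 1 transcript cluster (12832821) among 26773 in the deposited table, a transcript cluster being the set of probes that the array reads as one gene, and was chosen by its gene symbol. The comparison rows are the other 20 transcript clusters whose symbol consists of PAG and a number. RNA came from 6 cultures of primary bovine granulosa cells (GC), of which 3 had been seeded at the normal and 3 at the high density, each hybridized to a Bovine Gene 1.0 ST Array. All cultures were kept for 9 days in serum-free medium with FSH, IGF-1 and androstenedione, and the plating density was the only difference between the groups that the labels give. The cells were aspirated from follicles of abattoir ovaries and pooled over many follicles and cows of undefined cycle stage, so that a culture does not stand for 1 animal. Whether cultures came from the same pool was not given, and p-values measure only the spread between these cultures. PAG11 was picked with this density comparison in view, so its own values are a description without a test.

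The PAGs are secreted glycoproteins of the pepsin family of aspartic proteases, although many members have lost protease activity through changes around the catalytic site. They are known as products of the trophoblast of ruminants and related ungulates, and some of them reach the maternal blood, where they serve as a pregnancy test in cattle. PAG2, PAG8, PAG10, PAG11 and PAG12 are placed in the ancient group of the family, made widely in the trophoblast, while most other members are modern PAGs of the binucleate cells. Granulosa cells are the somatic cells that line the follicle and make estradiol, and they are not a placental tissue. The paper cites an earlier report of PAG11 expression in bovine cumulus cells, which surround the oocyte. Values are log2 signals from the authors' RMA procedure, and a difference is high minus normal density on that scale. The background level, 4.62, was taken as the 95th percentile of the 82 reporter control rows, and 49.3% of all transcript clusters stayed at or below it in all 6 cultures. Signals of different transcript clusters depend on their probes and were not ranked against each other.

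PAG11 had log2 signals of 9.52, 9.46 and 9.91 in the normal density cultures, replicates 1, 2 and 3. At high density the signals were 5.53, 5.55 and 5.83. All 6 values lay above the background level, the groups were far apart, and replicate 3 gave the highest value at each density. The mean of the normal density group was 9.63 ± 0.24 and that of the high density group 5.63 ± 0.17 (SD, n = 3), a difference of −3.99 with a standard error of 0.14, or a signal 15.9-fold lower at high density. The closest pair of cultures from the 2 densities differed by 3.63 and the most distant pair by 4.38, against ranges of 0.45 within normal and 0.30 within high density. Even at high density the mean remained 1.01 above the background level. The floor of the PAG11 probes themselves is not known, and whether it limited the fall was not tested. In a bulk culture, fewer cells with the transcript and less transcript per cell cannot be told apart.

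**Figure D1:**
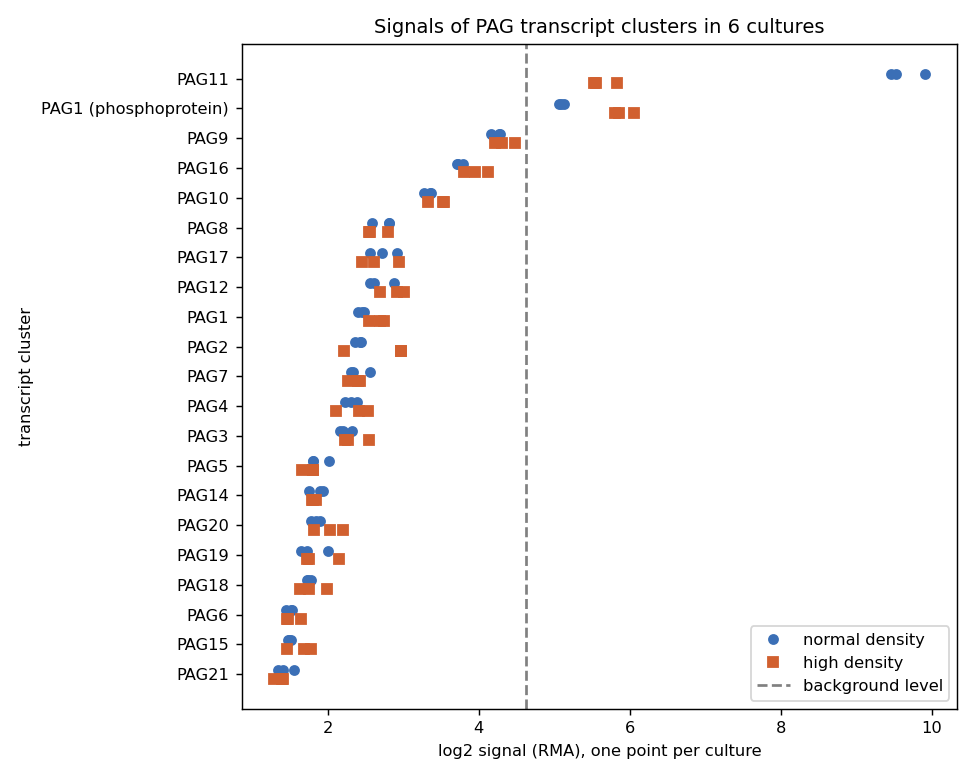
Log2 signals (x axis) of the 21 transcript clusters with a PAG symbol (y axis), 1 point per culture, with circles for normal and squares for high density and a dashed line at the background level of 4.62. The points of PAG11 form separate groups, both above the line, while all points of the 19 other pregnancy-associated glycoproteins lie below it.

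The remaining glycoproteins of the family stayed below the background level. Of the 20 comparison rows, 19 belong to pregnancy-associated glycoproteins. The other one, a PAG1 row (transcript cluster 12725999), shares only the abbreviation. It is the phosphoprotein associated with glycosphingolipid microdomains, a membrane adaptor of Src-family kinase signaling, and its gene lies on another chromosome in RefSeq. None of the 114 signals of the 19 glycoproteins, 6 cultures each, was above the background level. They lay between 1.29 and 4.48 with a median of 2.31. This count depends on the percentile chosen: 7 of the 114 signals exceeded the 90th percentile of the control rows, 14 the 75th and 43 the 50th, while all 6 PAG11 signals exceeded each of these levels.

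Among the ancient PAGs, PAG10 gave 3.35, 3.36 and 3.27 in normal density cultures and 3.54, 3.53 and 3.33 in high density cultures. PAG2 was measured at 2.43, 2.36 and 2.44 at normal density and at 2.97, 2.21 and 2.97 at high density. For PAG12 the values were 2.62, 2.88 and 2.56, and then 3.01, 2.69 and 2.92. In each of these transcript clusters the groups overlapped and every culture was below the background level. PAG8 behaved likewise, with 2.58, 2.81 and 2.81 at normal and 2.80, 2.56 and 2.54 at high density.

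Of the modern PAGs, PAG9 had 4.17, 4.27 and 4.28 at normal and 4.31, 4.48 and 4.22 at high density. PAG16 had 3.73, 3.72 and 3.79 at normal density, then 4.13, 3.80 and 3.95. The groups of PAG9 overlapped and those of PAG16 did not, the high density cultures being higher. The PAG1 glycoprotein (transcript cluster 12832674) had 2.48, 2.46 and 2.41 at normal and 2.55, 2.75 and 2.69 at high density, also without overlap. The other 12 modern PAGs had mean signals between 1.43 and 2.73 at normal density.

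Differences between the densities were tested with limma's moderated test, adjusted after Benjamini-Hochberg over all transcript clusters, and a row was termed called when it changed by more than 1.5-fold in either direction with both p-value and FDR below 0.05. Of all transcript clusters 7.49% were called, 3.97% as higher and 3.51% as lower at high density. PAG11 is one of the latter, which its choice had fixed. None of the 19 other glycoproteins was called by limma or by the methods' t-test. At an unadjusted p below 0.05 limma found 1 of the 19, or 5.26%, and the methods' t-test also 1, against 32.3% of all transcript clusters with limma. That row was the PAG1 glycoprotein, with a difference of 0.22 (standard error 0.08, limma's adjusted p = 0.0939), higher in all 3 high density cultures than in any normal density culture. The groups did not overlap in 2 of the 19 rows, PAG1 and PAG16, 10.5% compared with 37.3% of all transcript clusters. PAG16 differed by 0.22 (standard error 0.09, limma's adjusted p = 0.160).

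**Figure D2:**
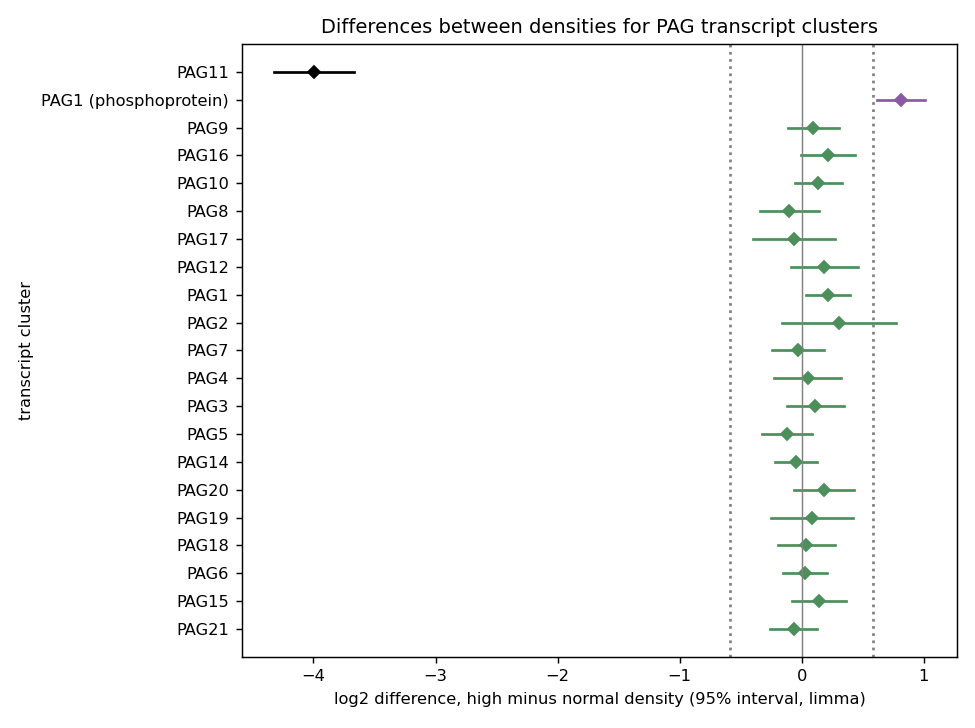
Log2 differences, high minus normal density (x axis), with 95% confidence intervals from limma for the 21 transcript clusters with a PAG symbol (y axis). Dotted lines mark an FC of 1.5. PAG11 stands at −3.99, the PAG1 phosphoprotein at 0.81, and the 19 other glycoproteins between −0.12 and 0.31.

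Over the 19 glycoproteins the differences were between −0.12 for PAG5 and 0.31 for PAG2, with a median of 0.08, beside a median of 0.02 over all transcript clusters. They were positive in 13 rows and negative in 6. In 18 of the 19 rows the whole 95% confidence interval lay within an FC of 1.5 in either direction. The exception was PAG2, whose interval ran from −0.16 to 0.77 and whose high density replicate 2 was lower than all of its normal density cultures. As all of these signals were below the background level, a change of these transcripts could have been missed on these arrays. The values do not show that there was none.

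The PAG1 phosphoprotein was the only comparison row that was called. Normal density cultures gave 5.09, 5.12 and 5.07 and high density cultures 6.05, 5.81 and 5.86, all above the background level. It rose by 0.81 (standard error 0.08, limma's adjusted p = 7.16e-04), the opposite direction to PAG11.

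The PAG genes lie together on 1 chromosome in the RefSeq annotation of the bovine assembly ARS-UCD2.0, from PAG10 at one end to PAG8 at the other. PAG11 is the last but one of the 20 PAG genes on the array in that order, next to PAG6 on one side and PAG8 on the other. RefSeq lists 31 protein coding genes and 28 pseudogenes over this stretch. PAG6, the nearest PAG on one side, was measured at 1.45, 1.53 and 1.51 under normal density and at 1.47, 1.64 and 1.47 under high density, below the background level and with overlapping groups. A further 10 genes of the stretch without a PAG symbol were on the array. All 10 stayed below the background level in every culture, none was called, and their differences were between −0.27 and 0.24.

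Outside the PAG stretch, none of the 5 nearest named genes on either side was called, with differences between −0.49 and 0.13. On the side of PAG8 these were PGA5, which encodes a pepsinogen, VWCE, DDB1, a DNA damage binding protein, DAK and CYBASC3. DDB1 averaged 8.58 ± 0.02 in normal and 8.32 ± 0.08 in high density cultures (SD, n = 3), a difference of −0.27 (limma's adjusted p = 0.0392) that was below the FC threshold. CYBASC3, a cytochrome b561 family member, had the largest difference of the 10, −0.49 (standard error 0.11, limma's adjusted p = 0.0190), also below the FC threshold. VPS37C, CD5, CD6, SLC15A3 and TMEM132A, on the other side, differed by between −0.08 and 0.09. With 7.49% of all transcript clusters called, a count of 0 among so few genes, here or inside the stretch, is not a result about the locus. The row of PAG11 was tied to its RefSeq gene by symbol, since the table gives an Ensembl transcript for it. Whether the PAG11 probes also match other PAG copies was not tested, as probe sequences were not available.

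In the order of differences over the whole table, 1 transcript cluster lay below PAG11. This was TXNIP (12837074), the thioredoxin interacting protein, which restrains glucose uptake, with 9.96, 10.07 and 10.01 in the normal and 3.66, 4.40 and 3.73 in the high density cultures. Its high density signals were all below the background level, unlike those of PAG11. The measured difference of TXNIP was 2.08 lower than that of PAG11. Since the high density signals of TXNIP were below the background level, its fall may be understated. The next transcript cluster after PAG11, ARRDC4, was 0.97 higher.

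**Figure D3:**
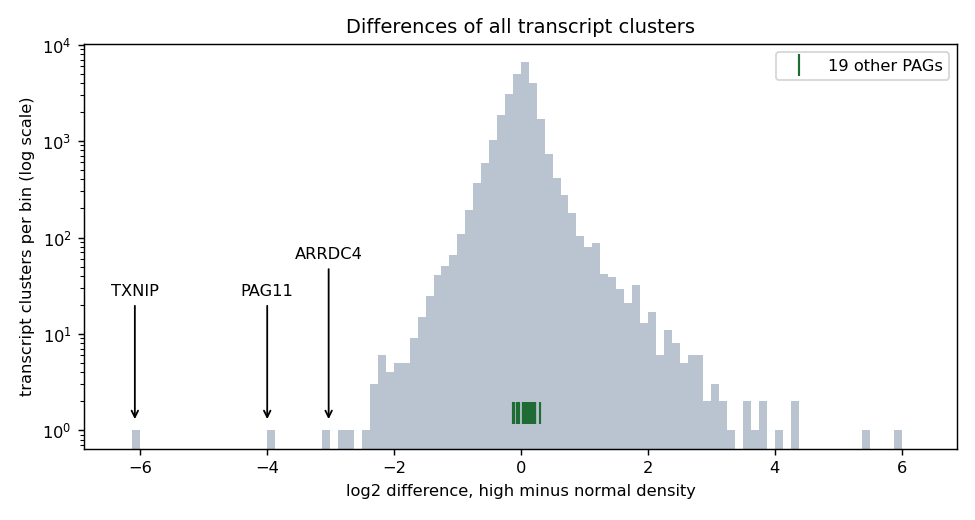
Distribution of the log2 differences, high minus normal density (x axis), of all 26773 transcript clusters, with the number per bin on a log scale (y axis). Arrows mark TXNIP, PAG11 and ARRDC4, and the green ticks of the 19 other pregnancy-associated glycoproteins lie in the centre of the distribution.

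The profiles most like that of PAG11 were found by the Euclidean distance between log2 signals over the 6 cultures, each row centred on its own mean, over 20573 transcript clusters with a symbol. Distances of this kind mainly reflect the density difference, which all of these rows share, and they were not tested. The nearest was ARRDC4, an alpha-arrestin like TXNIP, at a distance of 1.34, against a median of 4.94 over all rows compared. It gave 8.85, 8.99 and 8.74 in the normal and 5.84, 5.94 and 5.72 in the high density cultures. As in PAG11, both densities were above the background level, but replicate 3 was the lowest of its group in ARRDC4 and the highest in PAG11.

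CYP19A1, which encodes the aromatase of estradiol synthesis, was next at 1.56. It had 6.36, 6.75 and 6.42 at normal and 3.54, 3.61 and 3.97 at high density. PIK3R3, a regulatory subunit of phosphoinositide 3-kinase, followed at 1.64, and XDH, the xanthine dehydrogenase of purine breakdown, at 2.06. In CYP19A1, PIK3R3 and XDH no high density culture exceeded the background level, and their falls may be understated. DHRS9, a short-chain dehydrogenase of retinoid metabolism, was at 2.12, with 7.13, 7.12 and 7.35 at normal and 4.88, 4.92 and 4.98 at high density. DHRS9 shared with PAG11 signals above the background level at both densities and the highest value in replicate 3. TXNIP was only at place 22 by this distance, 2.67, with a larger measured fall than PAG11.

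**Figure D4:**
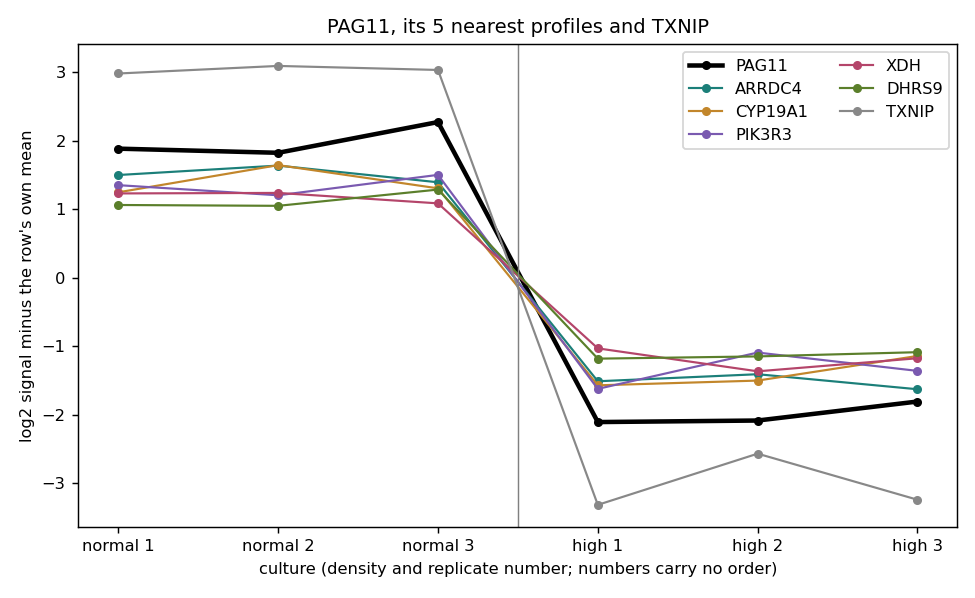
Log2 signals minus the row's own mean (y axis) in the 6 cultures (x axis) for PAG11, the 5 nearest profiles and TXNIP. The rows drop from normal to high density, PAG11 from values between 1.83 and 2.28 to values between −2.10 and −1.80, with the high density points of CYP19A1, PIK3R3, XDH and TXNIP coming from signals below the background level.

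Of the pepsin family proteases outside the PAGs, 8 were on the array and none was called, with a median difference of −0.03. In 5 of the 8 no culture exceeded the background level, and with 7.49% of all transcript clusters called, a count of 0 in so short a list is not a result about the family. CTSD, the lysosomal cathepsin D, had 10.49, 10.57 and 10.57 at normal and 10.62, 10.46 and 10.58 at high density. BACE1, the beta-secretase, had 8.55, 8.54 and 8.44 and then 8.23, 8.07 and 8.35, a difference of −0.30 (limma's adjusted p = 0.0618) without overlap of the groups. Among those below the background level were NAPSA, PGC, PGA5 and CYM, which encode napsin and digestive proteases. None of the 7 intramembrane and other aspartic proteases was called either, with a median difference of −0.13.

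Other products of the ruminant trophoblast were examined because PAGs are known from that tissue. In 19 of the 20 transcript clusters of this list no culture exceeded the background level, among them placental lactogen (CSH2), the prolactin-related proteins, interferon tau (IFNT2) and most trophoblast Kunitz domain proteins. The exception was TKDP3, one of the Kunitz domain proteins, with 5.63, 6.05 and 6.24 in the normal and 6.57, 6.63 and 7.11 in the high density cultures. It was the only called row of the list and rose by 0.79 (standard error 0.19, limma's adjusted p = 0.0283). This call was lost with the methods' t-test and without normal density replicate 1, normal density replicate 2 or high density replicate 3. The median difference of the list was 0.08. Its summed signal was between 7.22 and 7.46 on the log2 scale at normal density and between 7.65 and 7.93 at high density. In rows below the background level a fall may have been missed or understated. Of the 18 transcription factors known from trophoblast none was called, against 7.49% of all transcript clusters, and their median difference was 0.14. CDX2, GCM1, ELF5 and EOMES among them were below the background level in all cultures. PPARG, above the background level in all cultures, differed by −0.47, and HAND1, below it in all cultures, by 0.50, and both were below the FC threshold.

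The cells carried most of the granulosa markers examined. Of 18 granulosa cell markers 14 were above the background level in every culture, and 8 were called, 7 lower and 1 higher at high density. Over all transcript clusters 3.51% were called lower and 3.97% higher. LHCGR, the LH receptor, was below the background level in all 6 cultures, and CYP19A1 in all high density cultures. The median difference of the granulosa list was −0.31. FSHR, the FSH receptor, fell by 2.21 (limma's adjusted p = 1.01e-04), INHA, the inhibin alpha subunit, by 2.16 (limma's adjusted p = 1.05e-04), and FOXL2, the granulosa transcription factor, by 0.65 (limma's adjusted p = 0.00424). In high density replicate 3 FSHR was below the background level, at 4.53, and its fall may be understated. HSD17B1, which converts estrone to estradiol, rose by 1.26 (limma's adjusted p = 5.90e-04). This rise may be understated, since the normal density signals of HSD17B1 were all below the background level. PAG11 moved in the direction of the larger part of the called granulosa markers, and whether these changes are connected was not tested.

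Cumulus cells are the granulosa cells around the oocyte, and of 11 cumulus markers 7 were called, all higher, with a median difference of 0.87. The share called higher over all transcript clusters was 3.97%. PTX3, a matrix-organizing pentraxin, rose by 1.61, EREG, an EGF-like ligand, by 1.37, and SDC4, a cell surface proteoglycan, by 1.13 (limma's adjusted p = 7.26e-04, 4.53e-04 and 1.30e-04). HAS2, the hyaluronan synthase, was called with 0.87 (limma's adjusted p = 0.0229), but all of its signals were below the background level. Its call was lost with the methods' t-test and without normal density replicate 1, normal density replicate 3 or high density replicate 3. The other 4 markers were not called, among them TNFAIP6, a hyaluronan-binding matrix protein, with −0.32. The relation of the 7 to PAG11 was not tested.

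**Figure D5:**
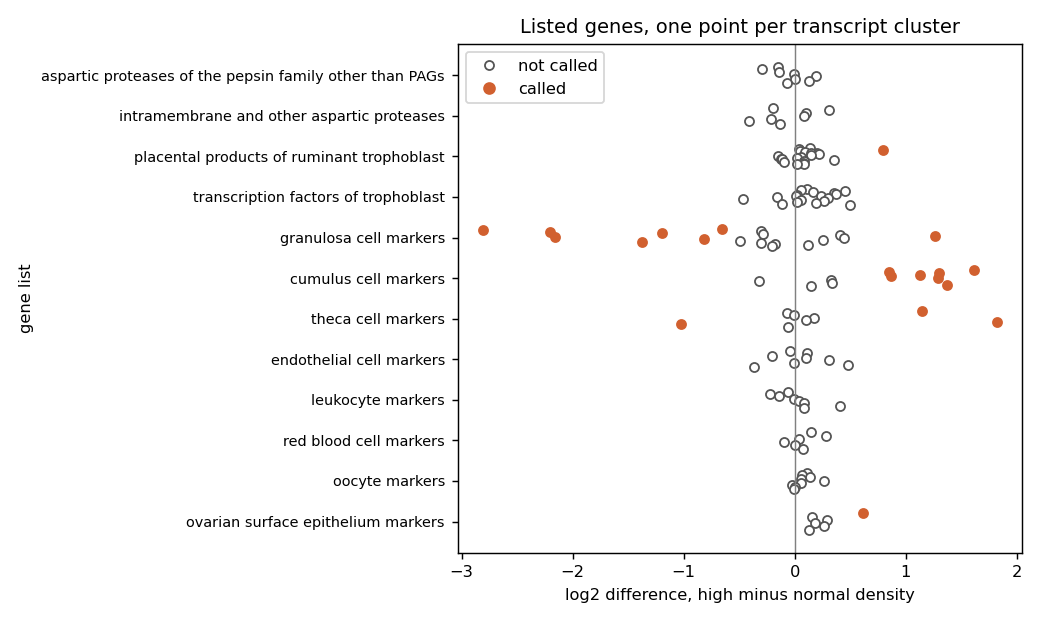
Log2 differences, high minus normal density (x axis), for the listed genes (y axis), with 1 point per transcript cluster, filled where called and open where not. In the protease and trophoblast lists TKDP3 at 0.79 is the only called point and the others lie between −0.47 and 0.50, called granulosa markers reach from −2.80 to 1.26, and the called cumulus markers lie between 0.85 and 1.61.

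Markers of other cells that could be present differed in their signals. For comparison with the counts below, 7.49% of all transcript clusters were called. The 6 red blood cell, 8 leukocyte and 9 oocyte markers were below the background level in every culture, including HBB, PTPRC and GDF9, and none was called. Among 8 endothelial markers none was called and only VWF exceeded the background level, while PECAM1 and CDH5 did not. This list does not hold CLDN5, a claudin also known from endothelial cells, which the paper reports among its top up-regulated genes at high density. Of 8 theca markers 4 were above the background level in all 6 cultures, DCN, NR2F2, COL1A1 and INSL3, and 3 were called. INSL3, a peptide hormone of theca and luteal cells, rose by 1.82, and COL1A1, a fibrillar collagen, by 1.15, while ALDH1A1 fell by 1.02 with all signals below the background level. CYP17A1, the defining steroidogenic enzyme of theca, stayed below the background level. By the paper's account, isolation by aspiration gives nearly pure granulosa cells, free of theca cells. Of 6 markers of the ovarian surface epithelium 3 were above the background level in all 6 cultures, UPK1B, CDH1 and MSLN. UPK1B was the only one called, with a rise of 0.62 that was not called without high density replicate 2, with array weights or after the array medians were set equal. The part of these cells in the PAG11 values was not tested.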

How the data were processed

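The values are log2 signals per transcript cluster, 1 array per culture, which the authors made from the scanned arrays in Affymetrix Expression Console with RMA (background reduction, normalization between arrays and gene-level summary), and deposited as 1 table. The table holds 0 columns of other samples, and no further normalization was applied. The array medians lay between 4.34 and 4.43. The number of arrays limits the precision. Densities were compared by a two-sided moderated test without covariates (R 4.3.3, limma 3.58.1, functions lmFit and eBayes), a step tested on simulated data. The thresholds for a call follow the methods. The methods name an ANOVA for the arrays. With only a pair of groups it equals a t-test per row, here termed the methods' t-test, and it was run on the same values. Exact permutation of 3 against 3 cultures has 0.1 as its lowest p.

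RefSeq genes of ARS-UCD2.0 were matched by accession for 14 and by symbol for 7 of the 21 PAG rows. The build of the array annotation was not given in the sources used here, so no coordinates are printed. Members and lists were chosen with earlier results of these data known. Named genes are PAG11, the rows with a PAG symbol, called or defining members of the lists, the 5 nearest profiles, the 5 named genes on each side, TXNIP and ARRDC4. The grouping into ancient and modern PAGs, and other genes named as list members, were chosen after their values were seen. Protein identities planned between the PAGs were not computed. Figures were drawn with matplotlib 3.10.9.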

Additional observations from a re-analysis of the deposited data

How the results depend on the processing

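The difference of PAG11 was between −4.09 and −3.85 with each culture left out in turn, and between −4.04 and −3.92 in the other settings tried, all smaller moves than the spread between cultures. Of the 20 comparison rows 1 was called in each setting, and of the 19 other pregnancy-associated glycoproteins 0. The count of all called transcript clusters was between 1848 and 2434 with each culture left out and between 1611 and 2311 in the other settings. The deviations of cultures with the same replicate number correlated between −0.05 and 0.05, which does not settle whether such cultures shared a cell pool. With the replicate number as a block the difference of PAG11 was the same, −3.99, and 1 of the 20 comparison rows was called. Over all settings, 16 to 20 of the listed transcript clusters were called, 20 in the reported fit. When profiles were divided by their SD, 1 of the 5 nearest to PAG11, DHRS9, was still among the 5 nearest, and this scaling removes the size of the change by construction. With the background at the 90th percentile of the control rows, an alternative chosen after seeing the data, 7 of the 114 signals of the other glycoproteins were above it, and 14 at the 75th and 43 at the 50th. HAND1 was called with array weights and without high density replicate 2, and KDR without high density replicate 3. With the filter at the background level, rows with both group means below it, ALDH1A1, HAS2 and the 19 glycoproteins among them, were not tested.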

Other observations

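With profiles divided by their SD, which compares shape without size, the nearest to PAG11 were AURKB, DHRS9, DAB2, PLCB1 and WDR77. AURKB, the Aurora B kinase of cell division, changed by −0.65 and DAB2, an endocytic adaptor, by −1.23, less than PAG11. PAG11 varied more at normal density than most rows, with 93.6% of all transcript clusters having a smaller SD there, and 66.5% at high density. PAG5 had the same signal, 1.81, in 4 cultures, and 121 transcript clusters of the table held this value in at least 1 culture.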
